A study of Mus musculus with 8 samples.

Results

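The genes described here are the solute carrier (Slc) genes of E14 mouse embryonic stem cells, measured on arrays after control or Dnmt3l hairpins. All probes whose annotated symbol starts with Slc and a number were taken if their detection p-value was under 0.05 on at least 2 of 8 arrays, and 9 Slc genes (Slc2a1, Slc2a3, Slc3a2, Slc7a3, Slc7a5, Slc7a11, Slc22a18, Slc38a4 and Slc25a31) were left out by rule. This gave 285 probes of 197 genes, out of 10930 genes tested. Another 151 of the 348 Slc genes on the array did not pass detection. Each gene was represented by its brightest detected probe, and 63 members had more than 1 detected probe. The members were sorted by what they carry: 34 mitochondrial carriers, 33 carriers of amino acids and peptides, 22 of protons, bicarbonate, sodium, potassium, chloride or calcium, 18 of vitamins, choline or nucleosides, 17 of nucleotide sugars and their relatives, 17 of zinc, 16 of organic ions, bile acids or vesicle contents, 12 of sugars and polyols, 8 of iron, copper, magnesium or heme, 6 of fatty acids or acetyl-CoA, 6 of monocarboxylates or dicarboxylates, and 3 of phosphate. A further 4 members bear an Slc symbol but encode no carrier, and Slc5a5, the iodide carrier, stood alone.

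Solute carriers are membrane proteins that move small molecules along or against their gradients, either by facilitated diffusion, by exchange of one solute for another, or by coupling to an ion gradient. They sit in the plasma membrane, the inner mitochondrial membrane, the endoplasmic reticulum and Golgi, lysosomes and secretory vesicles, and so set which nutrients, metals and nucleotides each compartment receives. Family numbers follow sequence relatedness, so members of a family mostly share a type of substrate but can differ in direction and compartment.

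E14 is a mouse embryonic stem cell line. Its culture medium held 15% serum and 1500 U/ml of leukaemia inhibitory factor (LIF), the cytokine that keeps such cells undifferentiated, and the cells were transfected with a short hairpin RNA, selected in puromycin for 3 days and lysed in TRIzol. The control group carried a hairpin against GFP (shGFP), and 3 groups carried different hairpins against Dnmt3l (shDnmt3L1, shDnmt3L2 and shDnmt3L3), each group with 2 arrays. Dnmt3l encodes the catalytically inactive partner of the de novo DNA methyltransferases Dnmt3a and Dnmt3b. The series title names germ cell differentiation as the setting of the study. Each pair of arrays is described as a duplicate of unstated origin, so each p-value reflects array-to-array spread alone, which could be purely technical. All cells were transfected and selected, and no untransfected cells are among the samples, so every difference is relative to the GFP hairpin.

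The target of the hairpins was lower in every hairpin group. The normalized log2 intensity of Dnmt3l was 11.87 and 11.97 on the shGFP arrays, 10.51 and 10.45 in shDnmt3L1, 10.73 and 10.84 in shDnmt3L2 and 9.34 and 9.19 in shDnmt3L3, so shDnmt3L3 arrays had the lowest level. Of 45281 probes, 18111 to 19241 were detected per array, and median intensities lay between 96.1 and 104. Across the genes tested, arrays of 1 group correlated at 0.996 to 0.997 and shGFP arrays with hairpin arrays at 0.968 to 0.982. All 8 embryonic stem cell markers were measured, among them Pou5f1, Nanog and Sox2, and limma called 0 of them over the 3 hairpins (0 also at an unadjusted p under 0.05), but the hairpins differed. With shDnmt3L1 it called 0 higher and 1 lower, with shDnmt3L2 1 higher and 1 lower and with shDnmt3L3 1 higher and 2 lower, and 3 of the 8 differed among the hairpins in the F test. Pou5f1 was higher with shDnmt3L2 (0.24 (SE 0.08, adjusted p = 0.0479)) and lower with shDnmt3L3 (-0.40 (SE 0.08, adjusted p = 0.00359)). Utf1 was lower with shDnmt3L3 (-0.45 (SE 0.08, adjusted p = 0.00186)). Sox2 was lower with shDnmt3L2 (-0.32 (SE 0.09, adjusted p = 0.0229)), and Esrrb was lower with shDnmt3L1 (-0.28 (SE 0.08, adjusted p = 0.0147)) and higher with shDnmt3L3 (0.24 (SE 0.08, adjusted p = 0.0258)). Of 12 fibroblast and feeder markers 4 were measured, and their summed linear signal was 298 to 305 on shGFP arrays, 772 to 775 with shDnmt3L1, 471 to 537 with shDnmt3L2 and 618 to 626 with shDnmt3L3. Thy1 and Acta2 were called higher over the 3 hairpins. Pdgfrb (0.14 (SE 0.12, adjusted p = 0.339)) and Twist1 (-0.02 (SE 0.14, adjusted p = 0.913)) were not called. The fibroblast genes Col1a1, Col1a2, Col3a1, Pdgfra, Postn, Dcn and Lum did not pass detection. Of 10 endoderm markers 5 were measured, with a summed signal of 312 to 329 with shGFP, 500 to 502 with shDnmt3L1, 552 to 575 with shDnmt3L2 and 587 to 602 with shDnmt3L3, and Gata4, Gata6, Sox17, Cubn and Foxa2 did not pass detection. The 5 did not move together. Col4a1 was higher with each hairpin, whereas Sox7 was lower over the 3 hairpins (-0.22 (SE 0.08, adjusted p = 0.042)). Dab2 was higher with shDnmt3L1 and shDnmt3L2 but not called with shDnmt3L3 (0.07). Lama1 was higher with shDnmt3L2 and shDnmt3L3 but not called with shDnmt3L1 (-0.13), and Amn was called with shDnmt3L3 alone (0.85). The part of these shifts in the results below was not tested. In bulk RNA, fewer cells of a type and less RNA per cell cannot be told apart.

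Promoter windows from RefSeq (mouse assembly GRCm38.p6, 300 bases around the annotated start, mostly upstream) are shown for 5 members on which the results turn and for which the table has a single window, because the hairpins target a partner of enzymes that methylate cytosine in CpG. Each is written from 5′ to 3′ in lower case with every CG in capitals. The windows are for Slc4a3 (chr1:75546212-75546511, plus strand, 28 CG) and Slc25a36 (chr9:97110992-97111291, minus strand, 29 CG), which rose with all 3 hairpins, Slc35b1 (chr11:95384606-95384905, plus strand, 19 CG), which fell with all 3, Slc1a3 (chr15:8710758-8711057, minus strand, 3 CG), which rose with shDnmt3L1 and shDnmt3L2, and Slc50a1 (chr3:89270521-89270820, minus strand, 22 CG), which moved in opposite directions with different hairpins.
Slc4a3: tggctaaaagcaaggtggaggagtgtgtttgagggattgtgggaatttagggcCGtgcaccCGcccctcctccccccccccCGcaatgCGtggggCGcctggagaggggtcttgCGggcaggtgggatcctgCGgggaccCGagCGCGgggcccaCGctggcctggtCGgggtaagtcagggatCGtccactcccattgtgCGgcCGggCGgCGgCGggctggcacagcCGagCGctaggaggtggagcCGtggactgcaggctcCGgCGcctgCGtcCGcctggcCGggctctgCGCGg
Slc25a36: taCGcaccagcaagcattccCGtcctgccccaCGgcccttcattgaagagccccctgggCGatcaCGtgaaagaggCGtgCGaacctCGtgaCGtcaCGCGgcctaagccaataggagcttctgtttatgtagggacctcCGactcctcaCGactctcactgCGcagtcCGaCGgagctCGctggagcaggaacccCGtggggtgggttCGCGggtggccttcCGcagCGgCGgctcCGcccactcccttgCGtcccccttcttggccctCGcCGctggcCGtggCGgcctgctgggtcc
Slc35b1: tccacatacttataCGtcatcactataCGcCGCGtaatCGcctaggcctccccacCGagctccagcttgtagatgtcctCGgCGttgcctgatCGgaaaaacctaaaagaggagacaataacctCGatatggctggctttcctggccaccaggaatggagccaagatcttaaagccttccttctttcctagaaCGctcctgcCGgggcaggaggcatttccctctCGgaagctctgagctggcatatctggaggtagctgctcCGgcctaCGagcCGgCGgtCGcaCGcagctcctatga
Slc1a3: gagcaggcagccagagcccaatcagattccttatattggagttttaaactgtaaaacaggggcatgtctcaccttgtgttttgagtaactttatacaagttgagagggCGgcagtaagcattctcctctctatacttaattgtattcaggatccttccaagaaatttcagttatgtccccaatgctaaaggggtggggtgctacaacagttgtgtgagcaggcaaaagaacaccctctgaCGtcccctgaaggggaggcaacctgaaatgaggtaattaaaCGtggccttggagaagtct
Slc50a1: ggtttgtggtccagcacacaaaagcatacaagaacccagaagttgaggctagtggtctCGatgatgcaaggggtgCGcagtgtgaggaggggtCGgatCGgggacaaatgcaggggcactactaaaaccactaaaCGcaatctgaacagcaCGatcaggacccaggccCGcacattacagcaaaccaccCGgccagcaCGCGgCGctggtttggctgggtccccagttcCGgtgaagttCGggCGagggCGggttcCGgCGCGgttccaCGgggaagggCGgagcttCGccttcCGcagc
Over all 32851 windows of 300 bases in the table the median was 7 CG. At least as many CG as in the Slc25a36 window were found in 12.9% of windows, as in Slc4a3 in 14.2%, as in Slc50a1 in 23.1%, as in Slc35b1 in 28.1% and as in Slc1a3 in 76.7%. Methylation was not measured on these arrays, and the letters say nothing of whether these sites were methylated.

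Against shGFP, Slc genes moved in both directions with each hairpin, in proportions close to those of all genes. With shDnmt3L1, 41 members were higher (20.8%, against 25.2% of all genes tested) and 47 lower (23.9%, against 22.6%). For shDnmt3L2, 31 were higher (15.7%, against 20.8% of all genes) and 35 lower (17.8%, against 18.3%). For shDnmt3L3, 59 were higher (29.9%, against 27.1% of all genes) and 51 lower (25.9%, against 25.1%). When the mean of the 3 hairpins was set against shGFP, 51 members were higher (25.9%, against 27.5% of all genes) and 57 lower (28.9%, against 24.7%), and 89 were not called. The median log2 difference over all members was -0.03, beside 0.01 over all genes tested. A call is an adjusted p under 0.05 in limma with Benjamini-Hochberg adjustment over all 10930 genes. When arrays were scaled to a common median instead of a common distribution, the members split into 59 higher and 30 lower and the median of all genes moved from 0.01 to 0.07, so the balance of the directions depends on the scaling. With the hairpin group as a random block, 5 members were still called: Slc4a3, Slc47a1, Slc6a6 and Slc12a8 were higher and Slc35b1 lower. This setting treats the arrays of a group as correlated. Its degrees of freedom still count arrays, so it does not test with the hairpin as the unit.

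**Figure D1:**
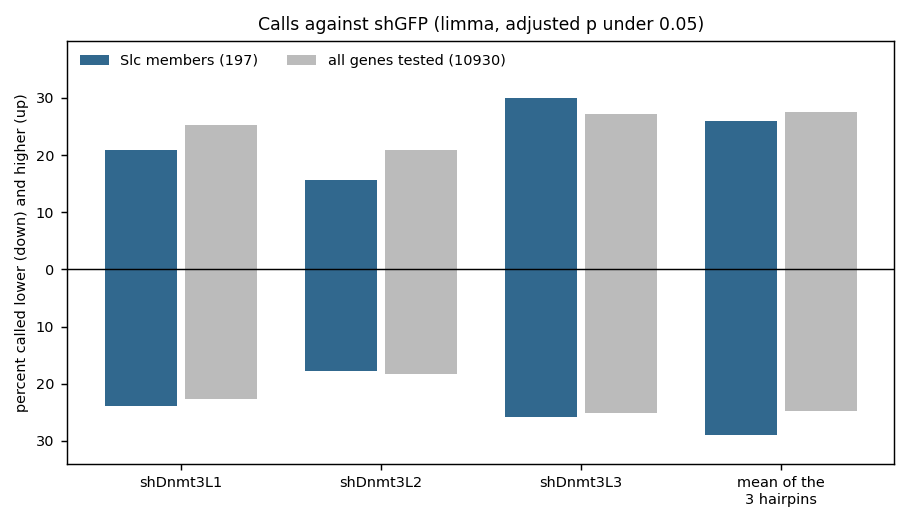
Percent of the 197 Slc members (blue) and of all 10930 genes tested (grey) that limma called higher (upward bars) or lower (downward bars) than shGFP, for each hairpin and for the mean of the 3 hairpins. Member and background bars lie close together, with the highest share of members called higher under shDnmt3L3 (29.9%).

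The classes differed in their counts. Nucleotide sugar carriers and their relatives had 1 of 17 members higher and 8 lower over the 3 hairpins, with a median log2 difference of -0.22, beside 27.5% of all genes higher, 24.7% lower and a median of 0.01. Zinc carriers had 4 of 17 higher and 5 lower (median -0.17), and the iron, copper, magnesium and heme carriers 3 of 8 higher and 4 lower (median -0.16). Carriers of organic ions, bile acids and vesicle contents had 7 of 16 higher and 5 lower (median 0.21). The ion exchangers and cotransporters had 8 of 22 higher and 6 lower (median 0.04), amino acid and peptide carriers 7 of 33 higher and 8 lower (median 0.02), and mitochondrial carriers 9 of 34 higher and 10 lower (median -0.01). Vitamin, choline and nucleoside carriers had 6 of 18 higher and 5 lower (median -0.06), and sugar and polyol carriers 3 of 12 higher and 3 lower (median -0.01). Among the smaller classes, 1 of 6 fatty acid carriers was higher and 1 lower, 1 of 3 phosphate carriers was higher, and limma called 0 of 6 monocarboxylate and dicarboxylate carriers (0 also at an unadjusted p under 0.05). Under median scaling the lower calls fell to 1 zinc, 2 iron, copper, magnesium or heme, 3 amino acid or peptide and 2 ion carriers, the nucleotide sugar class had 3 higher and 6 lower (median -0.13), and the medians of the mitochondrial, vitamin and sugar classes turned positive (0.03, 0.04 and 0.05). It also left 2 lower calls among the vitamin, choline and nucleoside carriers and 6 among the mitochondrial carriers. Single arrays of shGFP moved several counts by more than 1.5 times. Without shGFP replicate 1, the lower calls were 2 among the iron, copper, magnesium and heme carriers, 6 among the mitochondrial and 2 among the vitamin, choline and nucleoside carriers, and 2 zinc carriers and 2 nucleotide sugar carriers were higher. Without shGFP replicate 2, the lower calls were 5 among the amino acid and peptide carriers and 2 among the ion carriers, and 4 carriers of organic ions, bile acids and vesicle contents were higher. In the fatty acid, monocarboxylate and phosphate classes, leaving out 1 array moved counts by 1 call at most. The higher counts include 11 members not detected with shGFP, whose direction the filter fixed. They were Slc22a23, Slc17a7 and Slc17a1 among organic ion carriers, Slc4a1 and Slc4a4 among ion carriers, and Slc32a1 and Slc38a3 among amino acid carriers. The others were Slc25a27 and Slc25a46 among mitochondrial carriers, Slc44a3 in the choline class and Slc30a10 among zinc carriers. The class counts are a description, and no class was tested against the others.

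**Figure D2:**
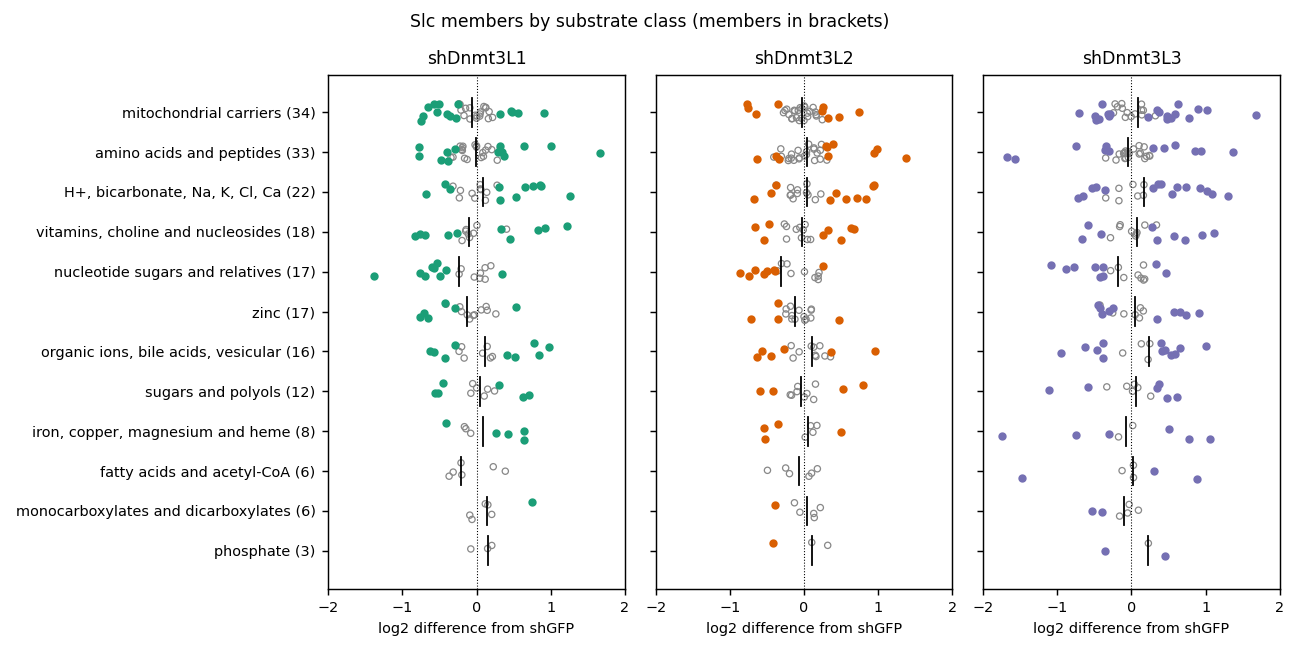
Log2 difference of each Slc member from shGFP (horizontal axis) in 12 substrate classes, in 1 panel per hairpin; filled points were called by limma, open points were not, and the black bar is the class median. The bars of the nucleotide sugar class lie left of zero in all 3 panels, at -0.23, -0.30 and -0.18.

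Among amino acid carriers the changes ran in both directions. The taurine transporter gene Slc6a6 read 10.27 and 10.24 in shGFP, 11.31 and 11.21 in shDnmt3L1, 11.18 and 11.32 in shDnmt3L2 and 11.23 and 11.17 in shDnmt3L3. All 6 hairpin arrays lay above both shGFP arrays and close to each other. It rose by 1.00 (SE 0.08, adjusted p = 4.16e-05) with shDnmt3L1, 0.99 with shDnmt3L2 and 0.94 with shDnmt3L3 on the log2 scale, and the F test found no difference among the hairpins (adjusted p = 0.794). A dimmer Slc6a6 probe, detected on 2 of 8 arrays, went the other way (-0.35 over the 3 hairpins). Slc6a9, which carries glycine, read 6.35 and 6.36 in shGFP, 6.76 and 6.69 in shDnmt3L1, 7.27 and 7.34 in shDnmt3L2 and 6.55 and 6.76 in shDnmt3L3. It rose most with shDnmt3L2, by 0.95 (SE 0.09, adjusted p = 0.000163), and differed among the hairpins (F test, adjusted p = 0.00107).

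The glial-type glutamate transporter gene Slc1a3 (GLAST) read 7.52 and 7.23 in shGFP, 8.98 and 9.11 in shDnmt3L1, 8.83 and 8.67 in shDnmt3L2 and 7.22 and 7.32 in shDnmt3L3. The shDnmt3L1 and shDnmt3L2 arrays lay far above shGFP, whereas the shDnmt3L3 arrays overlapped it. The log2 differences were 1.67 (SE 0.11, adjusted p = 1.96e-05) with shDnmt3L1, 1.37 (SE 0.11, adjusted p = 0.000103) with shDnmt3L2 and -0.11 (SE 0.11, adjusted p = 0.468) with shDnmt3L3. Its difference between shDnmt3L3 and the mean of the other hairpins was -1.63 (SE 0.10, adjusted p = 8.22e-06). Slc32a1, the vesicular carrier that loads GABA and glycine into synaptic vesicles, was not detected on either shGFP array, where it read 4.44 and 4.45, and was detected on 2 arrays of shDnmt3L1 (5.02 and 5.14), 1 of shDnmt3L2 (4.72 and 4.95) and 2 of shDnmt3L3 (5.83 and 5.81). Every hairpin array lay above both shGFP arrays. Over the 3 hairpins it was at least 1.32-fold higher, and with shDnmt3L3 at least 1.96-fold. It passed the detection filter only through hairpin arrays, which fixed this direction, so the values are a description with no test.

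Slc7a7 encodes y+LAT1, the light chain that exchanges cationic for neutral amino acids at the plasma membrane. It read 8.79 and 8.85 in shGFP, 7.97 and 8.11 in shDnmt3L1, 8.20 and 8.17 in shDnmt3L2 and 7.05 and 7.23 in shDnmt3L3. All hairpin arrays lay below shGFP, and those of shDnmt3L3 lay below the rest. Expression fell by 0.78, 0.63 and 1.68 on the log2 scale with shDnmt3L1, shDnmt3L2 and shDnmt3L3, each SE 0.09, and the last fell further than the mean of the first 2 (-0.97 (SE 0.08, adjusted p = 3.44e-05)). Its 2 other detected probes gave -1.01 and -0.49 over the 3 hairpins. Slc66a2 read 8.75 and 8.63 in shGFP, 7.88 and 7.95 in shDnmt3L1, 8.25 and 8.38 in shDnmt3L2 and 8.61 and 8.69 in shDnmt3L3. It was lower with shDnmt3L1 (-0.78 (SE 0.09, adjusted p = 0.000163)) and shDnmt3L2 (-0.38 (SE 0.09, adjusted p = 0.00802)), and its shDnmt3L3 arrays overlapped shGFP. The lysosomal exporter of cationic amino acids Slc66a1 fell with shDnmt3L3 (-0.75 (SE 0.16, adjusted p = 0.00411)) and gave -0.34 and -0.31 with the other hairpins.

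Ion exchangers and cotransporters held several of the largest rises. Family Slc4, the bicarbonate carriers, was singled out after its values were seen, and 6 of its members passed detection. Among the 3 detected on all 8 arrays, 2 were higher and 1 lower over the 3 hairpins, where 27.5% of all genes were higher and 24.7% lower, and with the hairpin as a random block 1 of the 6 was called higher and 0 lower. Slc4a3 (AE3, which exchanges chloride for bicarbonate) read 6.86 and 6.47 in shGFP, 7.95 and 7.89 in shDnmt3L1, 7.58 and 7.64 in shDnmt3L2 and 7.59 and 7.58 in shDnmt3L3. The shGFP arrays were lowest although they differed from each other more than any other pair. Its log2 differences were 1.26 (SE 0.12, adjusted p = 8.42e-05) with shDnmt3L1, 0.94 (SE 0.12, adjusted p = 0.000607) with shDnmt3L2 and 0.92 (SE 0.12, adjusted p = 0.0003) with shDnmt3L3, and its 2 other detected probes were higher by 1.11 and 0.42 over the 3 hairpins. The red cell anion exchanger gene Slc4a1 was not detected with shGFP (4.50 and 4.68) and was detected on every hairpin array, with 5.43 and 5.26 in shDnmt3L1, 5.35 and 5.25 in shDnmt3L2 and 5.97 and 5.82 in shDnmt3L3. It was at least 1.41-fold, 1.37-fold and 2.06-fold higher in the 3 groups, and at least 1.59-fold over all of them. Slc4a4, the electrogenic sodium bicarbonate cotransporter, had the same detection pattern and was at least 1.19-fold higher. Both passed the detection filter only through hairpin arrays, which fixed their direction, so their values are a description with no test. The sodium-driven exchanger gene Slc4a8 and Slc4a11 were higher by 0.61 (SE 0.06, adjusted p = 0.000101) and 0.30 (SE 0.10, adjusted p = 0.0289), and the anion exchanger gene Slc4a2 (AE2) was lower (-0.39 (SE 0.09, adjusted p = 0.00571)).

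Genes of family Slc12, which holds the cation-chloride cotransporters, split in direction. Slc12a8 read 7.09 and 7.24 in shGFP, 8.01 and 8.05 in shDnmt3L1, 8.02 and 8.18 in shDnmt3L2 and 8.27 and 8.10 in shDnmt3L3, and rose by 0.86, 0.93 and 1.02 on the log2 scale (each SE 0.10). Its hairpin groups overlapped one another, well above shGFP (F test, adjusted p = 0.405). Slc12a7, the potassium-chloride cotransporter KCC4, read 6.79 and 6.75 in shGFP, 6.86 and 6.95 in shDnmt3L1, 7.12 and 7.11 in shDnmt3L2 and 7.86 and 7.83 in shDnmt3L3. The shDnmt3L3 arrays stood clear of the others, and the difference from the mean of shDnmt3L1 and shDnmt3L2 was 0.84 (SE 0.06, adjusted p = 2.57e-05). The thiazide-sensitive cotransporter gene Slc12a3 was lower over the 3 hairpins (-0.43 (SE 0.11, adjusted p = 0.0102)), a call lost under median scaling and without shGFP replicate 2. Among sodium-proton exchangers, the Golgi exchanger gene Slc9a8 was higher (0.78 (SE 0.11, adjusted p = 0.000587)) and Slc9b2 lower (-0.50 (SE 0.08, adjusted p = 0.000988)).

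**Figure D3:**
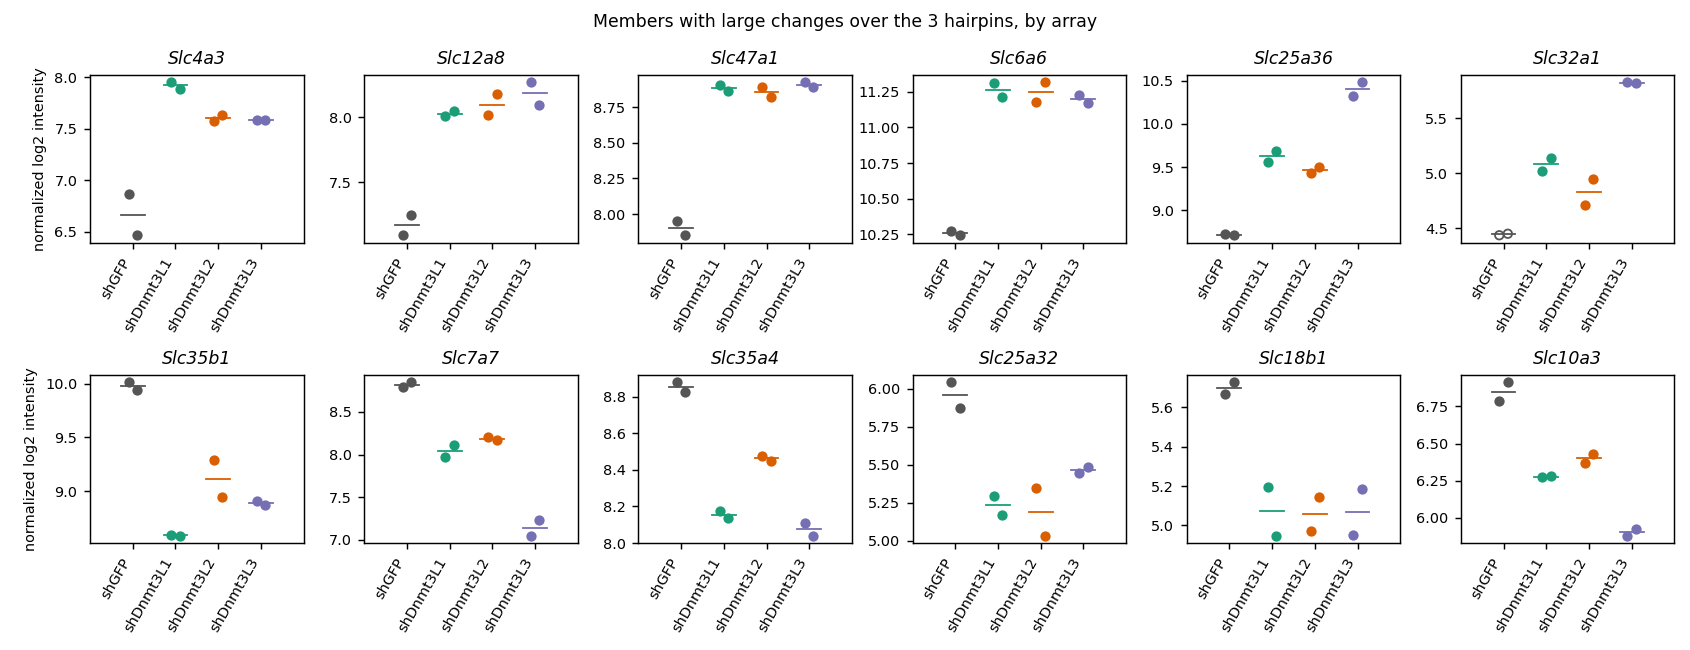
Normalized log2 intensity of 12 Slc members on each array (points), by hairpin group, with the group mean as a bar; open points mark a group in which no array detected the gene, and each panel has its own vertical axis. Hairpin arrays lie higher in the upper row, where the filter fixed the direction of Slc32a1, and lower in the lower row, and in all 12 panels the shGFP arrays lie apart from the 6 hairpin arrays.

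Mitochondrial carriers included the member with the largest rise over the 3 hairpins. Slc25a36, which carries pyrimidine nucleotides across the inner mitochondrial membrane, read 8.72 and 8.71 in shGFP, 9.56 and 9.69 in shDnmt3L1, 9.43 and 9.50 in shDnmt3L2 and 10.32 and 10.48 in shDnmt3L3. The groups did not overlap, with shGFP lowest and shDnmt3L3 highest. It rose by 0.91 (SE 0.09, adjusted p = 8.76e-05), 0.75 (SE 0.09, adjusted p = 0.000416) and 1.69 (SE 0.09, adjusted p = 3.3e-06) on the log2 scale in that order. Its 2 other detected probes were higher by 0.72 and 0.63 over the 3 hairpins. Slc25a30 was also higher with shDnmt3L3 (1.02 (SE 0.13, adjusted p = 0.000225)), whereas its other differences were 0.22 with shDnmt3L1 and 0.25 with shDnmt3L2.

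The carnitine-acylcarnitine carrier gene Slc25a20, which brings fatty acyl groups into mitochondria, read 9.90 and 9.91 in shGFP, 9.17 and 9.15 in shDnmt3L1, 9.23 and 9.28 in shDnmt3L2 and 9.51 and 9.51 in shDnmt3L3. Replicates lay close together, and all hairpin arrays lay below shGFP. It fell with every hairpin, by 0.74, 0.65 and 0.40 on the log2 scale (each SE 0.07), and less with shDnmt3L3 than with the other hairpins (0.30 (SE 0.06, adjusted p = 0.00444)). Slc25a32, a carrier of folate and FAD, read 6.04 and 5.87 in shGFP, 5.29 and 5.17 in shDnmt3L1, 5.35 and 5.03 in shDnmt3L2 and 5.45 and 5.49 in shDnmt3L3, and fell over the 3 hairpins by 0.66 (SE 0.09, adjusted p = 0.000532). The ATP-magnesium/phosphate carrier gene Slc25a25 was lower with shDnmt3L1 (-0.66 (SE 0.12, adjusted p = 0.00215)) and shDnmt3L2 (-0.76 (SE 0.12, adjusted p = 0.00153)) and was not called with shDnmt3L3 (-0.24 (SE 0.12, adjusted p = 0.117)). The adenine nucleotide carrier gene Slc25a5 (ANT2), whose probe was the brightest of the class, lay between 13.21 and 13.55 on all arrays and was not called over the 3 hairpins (-0.17 (SE 0.08, adjusted p = 0.0984)). Of the 34 mitochondrial carriers, 5 were higher and 10 lower with shDnmt3L1, where 25.2% of all genes were higher and 22.6% lower. With shDnmt3L2, 5 were higher and 4 lower (all genes 20.8% and 18.3%). With shDnmt3L3, 12 were higher and 8 lower (all genes 27.1% and 25.1%).

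Most called members of family Slc35, the carriers of nucleotide sugars into the Golgi and endoplasmic reticulum and their relatives, were lower. With shDnmt3L1, 8 of 17 were lower and 1 higher, where 22.6% of all genes were lower and 25.2% higher. With shDnmt3L2, 7 were lower and 1 higher (all genes 18.3% and 20.8%), and with shDnmt3L3, 7 were lower and 2 higher (all genes 25.1% and 27.1%). Slc35b1, which exchanges ATP and ADP across the endoplasmic reticulum membrane, read 10.01 and 9.94 in shGFP, 8.60 and 8.59 in shDnmt3L1, 9.29 and 8.95 in shDnmt3L2 and 8.91 and 8.87 in shDnmt3L3. Every hairpin array lay below shGFP, lowest with shDnmt3L1. The falls were -1.38 (SE 0.11, adjusted p = 3.52e-05), -0.86 (SE 0.11, adjusted p = 0.0006) and -1.08 (SE 0.11, adjusted p = 7.63e-05) with shDnmt3L1, shDnmt3L2 and shDnmt3L3, and they differed among the hairpins (F test, adjusted p = 0.0123). Slc35a4 read 8.88 and 8.83 in shGFP, 8.17 and 8.14 in shDnmt3L1, 8.48 and 8.45 in shDnmt3L2 and 8.11 and 8.04 in shDnmt3L3, and fell by 0.70, 0.39 and 0.78 on the log2 scale (each SE 0.07).

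The UDP-galactose carrier gene Slc35a2 was detected on both arrays of shGFP (5.54 and 5.39), shDnmt3L1 (4.92 and 4.94) and shDnmt3L3 (5.09 and 4.99) and on neither of shDnmt3L2 (4.75 and 4.70). All hairpin arrays lay below both shGFP arrays. It was at least 1.56-fold lower with shDnmt3L2 (adjusted p = 0.000338) and fell by 0.53 with shDnmt3L1 and 0.43 with shDnmt3L3 on the log2 scale. Slc35e1 was lower over the 3 hairpins (-0.55 (SE 0.06, adjusted p = 0.00017)). The GDP-fucose carrier gene Slc35c1 was the 1 member of the class called higher over the 3 hairpins, by 0.35 (SE 0.06, adjusted p = 0.00172).

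The member with the widest range between hairpins was an iron carrier. Ferroportin (Slc40a1), the exporter of iron from the cell, read 7.04 and 7.12 in shGFP, 7.39 and 7.30 in shDnmt3L1, 6.60 and 6.48 in shDnmt3L2 and 5.28 and 5.39 in shDnmt3L3. The 4 groups did not overlap, with shDnmt3L1 above shGFP and the other hairpins below. Its log2 differences were 0.26 (SE 0.09, adjusted p = 0.0317), -0.53 (SE 0.09, adjusted p = 0.0017) and -1.75 (SE 0.09, adjusted p = 2.79e-06) with shDnmt3L1, shDnmt3L2 and shDnmt3L3, and they differed among the hairpins (F test, adjusted p = 5.72e-06). The rise with shDnmt3L1 was not called when either of its arrays or either shGFP array was left out. Slc48a1 (HRG1), which carries heme out of lysosomes, read 7.03 and 7.09 in shGFP, 7.65 and 7.75 in shDnmt3L1, 7.26 and 7.10 in shDnmt3L2 and 8.11 and 8.12 in shDnmt3L3. It rose with shDnmt3L1 (0.64 (SE 0.09, adjusted p = 0.000438)) and shDnmt3L3 (1.05 (SE 0.09, adjusted p = 2.28e-05)), and with shDnmt3L2 the difference was 0.12 (SE 0.09, adjusted p = 0.294). The probable magnesium carrier gene Slc41a3 was higher by 0.64 (SE 0.09, adjusted p = 0.00053) over the 3 hairpins. For Slc11a1 (NRAMP1), a metal carrier of phagosomes, the probes disagreed: the brighter gave -0.30 over the 3 hairpins and another 0.54, and both were called.

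Of the zinc carriers, the 8 measured members of family Slc30, which mostly move zinc out of the cytosol, had 1 higher and 3 lower over the 3 hairpins. The 1 higher was Slc30a10, which was not detected with shGFP, so the filter fixed its direction. The 9 members of family Slc39, which mostly move zinc in, had 3 higher and 2 lower. Of all genes 27.5% were higher and 24.7% lower. Slc30a3, which loads zinc into synaptic vesicles, read 7.24 and 7.01 in shGFP, 6.39 and 6.33 in shDnmt3L1, 6.62 and 6.21 in shDnmt3L2 and 7.81 and 7.90 in shDnmt3L3. The shDnmt3L3 arrays lay above shGFP and the arrays of the other hairpins below it. The log2 differences were -0.77 (SE 0.14, adjusted p = 0.00194), -0.71 (SE 0.14, adjusted p = 0.00396) and 0.73 (SE 0.14, adjusted p = 0.00202) with shDnmt3L1, shDnmt3L2 and shDnmt3L3. Slc39a11 was higher with shDnmt3L3 (0.92 (SE 0.09, adjusted p = 6.57e-05); 0.80 (SE 0.08, adjusted p = 8.91e-05) from the mean of the other hairpins), beside 0.13 with shDnmt3L1 and 0.10 with shDnmt3L2. Slc39a13 rose by 0.53 over the 3 hairpins (SE 0.11). The plasma membrane zinc exporter gene Slc30a1 and the importer gene Slc39a1 fell by 0.45 and 0.37, the latter not under median scaling or without shGFP replicate 2. Slc39a7, the brightest probe of the class, was not called over the 3 hairpins (-0.17 (SE 0.08, adjusted p = 0.106)).

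Among carriers of organic ions, the multidrug and toxin extrusion gene Slc47a1 (MATE1) read 7.95 and 7.85 in shGFP, 8.91 and 8.86 in shDnmt3L1, 8.89 and 8.82 in shDnmt3L2 and 8.93 and 8.89 in shDnmt3L3. The hairpin arrays overlapped one another about 1 log2 unit above shGFP. It rose by 0.98, 0.96 and 1.01 with the 3 hairpins (each SE 0.08), with no call in the F test among them (adjusted p = 0.851), and its 2 other detected probes were higher by 0.51 and 0.40. Slc22a17, a receptor for lipocalin-2, was higher by 0.55 (SE 0.12, adjusted p = 0.00563), a call lost when its probes were averaged or without shGFP replicate 2. Slc10a3, a relative of the bile acid carriers, read 6.79 and 6.91 in shGFP, 6.28 and 6.28 in shDnmt3L1, 6.37 and 6.43 in shDnmt3L2 and 5.88 and 5.93 in shDnmt3L3. It fell in every hairpin group, furthest with shDnmt3L3 (-0.95 (SE 0.08, adjusted p = 2.52e-05); -0.44 (SE 0.07, adjusted p = 0.00103) from the mean of the other hairpins). Slc18b1, a vesicular carrier of polyamines, read 5.67 and 5.73 in shGFP, 5.19 and 4.95 in shDnmt3L1, 4.97 and 5.15 in shDnmt3L2 and 4.95 and 5.19 in shDnmt3L3, and fell over the 3 hairpins by 0.63 (SE 0.10, adjusted p = 0.000699).

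Carriers of nucleosides, choline and vitamins included both directions within family Slc29. The equilibrative nucleoside transporter gene Slc29a1 (ENT1) read 10.05 and 10.22 in shGFP, 9.31 and 9.31 in shDnmt3L1, 9.56 and 9.39 in shDnmt3L2 and 10.19 and 10.21 in shDnmt3L3. It fell with shDnmt3L1 (-0.83 (SE 0.09, adjusted p = 0.000165)) and shDnmt3L2 (-0.66 (SE 0.09, adjusted p = 0.000828)), while the shDnmt3L3 arrays overlapped shGFP (0.06), and another probe gave -0.80, -0.66 and 0.19. Slc29a4, the plasma membrane monoamine transporter, read 6.44 and 6.33 in shGFP, 7.20 and 7.23 in shDnmt3L1, 7.01 and 7.01 in shDnmt3L2 and 7.62 and 7.37 in shDnmt3L3, and was above shGFP on all 6 hairpin arrays (0.86 (SE 0.08, adjusted p = 5.18e-05) over the 3 hairpins). The lysosomal carrier gene Slc46a3 read 6.58 and 6.62 in shGFP, 7.81 and 7.82 in shDnmt3L1, 6.78 and 6.92 in shDnmt3L2 and 7.50 and 7.60 in shDnmt3L3. Its rise was smallest with shDnmt3L2 (0.25 (SE 0.08, adjusted p = 0.0386), not called without either shGFP array), beside 1.21 with shDnmt3L1 and 0.95 with shDnmt3L3, and it differed among the hairpins (F test, adjusted p = 0.000117). The choline transporter-like gene Slc44a2 was higher by 0.72 (SE 0.06, adjusted p = 3.37e-05). Slc23a4, known from the rat as a sodium-dependent carrier of nucleobases, was lower (-0.63 (SE 0.11, adjusted p = 0.00191)).

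Among sugar and polyol carriers, Slc37a1, a sugar-phosphate exchanger of the endoplasmic reticulum, read 6.48 and 6.45 in shGFP, 6.04 and 5.98 in shDnmt3L1, 6.15 and 6.40 in shDnmt3L2 and 5.31 and 5.38 in shDnmt3L3. All hairpin arrays were below shGFP, furthest in shDnmt3L3. The log2 differences were -0.45 (SE 0.10, adjusted p = 0.00473), -0.19 (SE 0.10, adjusted p = 0.158) and -1.12 (SE 0.10, adjusted p = 3.14e-05) in the order of the hairpins. The urate carrier gene Slc2a9 (GLUT9) was detected on all arrays but those of shDnmt3L3 and was at least 1.47-fold lower there (adjusted p = 0.00115). Slc5a11, a sodium-coupled carrier of inositol, and Slc45a4 were higher by 0.68 (SE 0.13, adjusted p = 0.00219) and 0.57 (SE 0.07, adjusted p = 0.000249). The very-long-chain acyl-CoA synthetase and fatty acid transport gene Slc27a2 read 8.99 and 9.18 in shGFP, 8.91 and 8.84 in shDnmt3L1, 9.14 and 9.23 in shDnmt3L2 and 7.61 and 7.61 in shDnmt3L3. The shDnmt3L3 arrays alone lay far below the rest (-1.48 (SE 0.09, adjusted p = 5.34e-06); -1.42 (SE 0.08, adjusted p = 4.29e-06) from the mean of the other hairpins), and another probe gave -1.69 with shDnmt3L3. Over the 3 hairpins its call was lost without the shDnmt3L3 arrays. Slc27a1 was higher with shDnmt3L3 (0.88 (SE 0.19, adjusted p = 0.00425)), but its size depended on single arrays. When 1 array was left out, the difference ranged from 0.56 to 1.19 with shDnmt3L3 and from 0.17 to 0.80 over the 3 hairpins. Of the phosphate carriers, Slc34a3 was higher with shDnmt3L3 (0.46 (SE 0.08, adjusted p = 0.00172)), and Slc20a1 (PiT-1) was lower with shDnmt3L2 (-0.42 (SE 0.13, adjusted p = 0.0336)) and shDnmt3L3 (-0.35 (SE 0.13, adjusted p = 0.0491)), calls that median scaling did not keep.

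Of the 197 members, 145 were detected on all 8 arrays and 37 on no array of at least 1 group. A member absent from the shGFP arrays could pass the filter only through hairpin arrays, so the direction of such members follows from the filter. The 11 called members of this kind were Slc4a1, Slc32a1, Slc4a4, Slc25a27, Slc25a46, Slc22a23, Slc17a7, Slc17a1, Slc44a3, Slc30a10 and Slc38a3. Besides Slc4a1 and Slc32a1, the bounds over the 3 hairpins were at most 1.19-fold, the value for Slc4a4, and Slc38a3 has none. Another 7 called members were detected with shGFP and on no array of 1 or more hairpins: Slc35a2, Slc2a9, Slc22a15, Slc8a1, Slc7a9, Slc25a41 and Slc26a4, with bounds from 1.08-fold lower for Slc26a4 to 1.45-fold lower for Slc35a2. The calls of Slc8a1, Slc26a4, Slc30a10, Slc7a9, Slc44a3, Slc17a1, Slc25a41 and Slc38a3 were lost under 5 or more of the alternative settings.

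**Figure D4:**
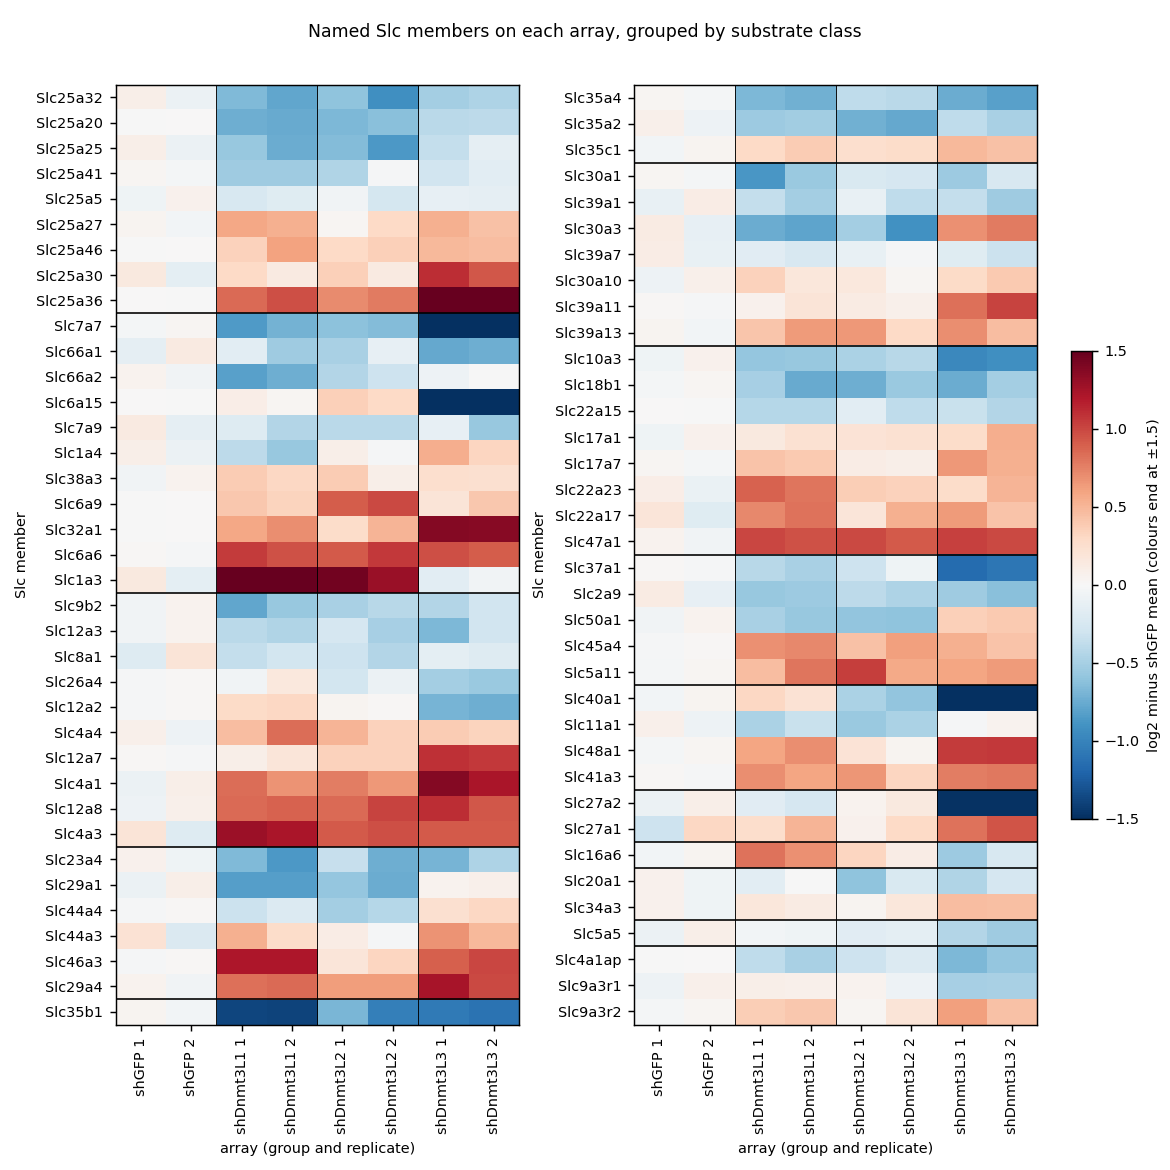
Normalized log2 intensity of 73 Slc members on each of the 8 arrays minus the shGFP mean of the gene (red higher, blue lower, colours ending at 1.5), with black horizontal lines between substrate classes and vertical lines between groups. The 2 arrays of a group have similar colours for most members, and the shDnmt3L3 columns differ from the shDnmt3L1 and shDnmt3L2 columns for Slc6a15, Slc1a3, Slc40a1, Slc27a2 and Slc30a3.

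The hairpins differed among themselves for many members. The F test called 82 of 197 members (41.6%, against 44.8% of all genes), and shDnmt3L3 was higher than the mean of shDnmt3L1 and shDnmt3L2 for 50 members (25.4%, against 22.3% of all genes) and lower for 30 (15.2%, against 21.2%). By class, this contrast gave 11 higher and 1 lower among the 34 mitochondrial carriers, 5 higher and 1 lower among the 17 zinc carriers, and 5 higher and 7 lower among the 33 amino acid and peptide carriers. The Dnmt3l level was also lowest with shDnmt3L3, and its part in these differences was not tested.

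The 8 members called in opposite directions with different hairpins and the widest range were Slc40a1 and Slc30a3, described above, and Slc6a15, Slc16a6, Slc12a2, Slc50a1, Slc1a4 and Slc44a4. They were picked for this pattern, so their values are given as a description. How many of all genes had opposite calls is not given, so the count of 8 cannot be read as a trait of Slc genes. Slc6a15, a carrier of neutral amino acids such as leucine and proline, read 7.36 and 7.35 in shGFP, 7.46 and 7.39 in shDnmt3L1, 7.71 and 7.65 in shDnmt3L2 and 5.76 and 5.81 in shDnmt3L3. Its shDnmt3L3 arrays lay far below all others (-1.57 (SE 0.07, adjusted p = 2.74e-06)), and with shDnmt3L2 it was higher by 0.32 (SE 0.07, adjusted p = 0.00869). Of its other detected probes, 1 gave -0.92 with shDnmt3L3 and 1 gave 0.18 there.

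Slc12a2 (NKCC1, the sodium-potassium-chloride cotransporter) read 9.90 and 9.94 in shGFP, 10.21 and 10.24 in shDnmt3L1, 9.97 and 9.94 in shDnmt3L2 and 9.22 and 9.19 in shDnmt3L3. It rose with shDnmt3L1 (0.30 (SE 0.07, adjusted p = 0.00812)) and fell with shDnmt3L3 (-0.71 (SE 0.07, adjusted p = 7.24e-05)), and the shDnmt3L2 arrays lay at the shGFP level. Slc16a6, of the monocarboxylate transporter family, read 6.55 and 6.63 in shGFP, 7.41 and 7.28 in shDnmt3L1, 6.92 and 6.71 in shDnmt3L2 and 6.04 and 6.35 in shDnmt3L3. The rise with shDnmt3L1 was 0.75 (SE 0.12, adjusted p = 0.00114), and the fall with shDnmt3L3, -0.39 (SE 0.12, adjusted p = 0.0225), was not called under median scaling or without shGFP replicate 2 or shDnmt3L3 replicate 1. Slc50a1 (SWEET1), a sugar carrier, read 7.15 and 7.25 in shGFP, 6.72 and 6.64 in shDnmt3L1, 6.62 and 6.60 in shDnmt3L2 and 7.57 and 7.60 in shDnmt3L3. The shDnmt3L3 arrays were above shGFP (0.38 (SE 0.08, adjusted p = 0.00339)) and the others below it (-0.53 (SE 0.08, adjusted p = 0.000749) and -0.60 (SE 0.08, adjusted p = 0.000651)).

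Slc1a4 (ASCT1), which exchanges alanine, serine, cysteine and threonine, read 7.40 and 7.22 in shGFP, 6.92 and 6.75 in shDnmt3L1, 7.40 and 7.30 in shDnmt3L2 and 7.86 and 7.63 in shDnmt3L3. It fell with shDnmt3L1 (-0.48 (SE 0.11, adjusted p = 0.00701)) and rose with shDnmt3L3 (0.43 (SE 0.11, adjusted p = 0.00965)), and with shDnmt3L2 its arrays overlapped shGFP. Slc44a4, another choline transporter-like gene, read 6.38 and 6.42 in shGFP, 6.08 and 6.20 in shDnmt3L1, 5.89 and 5.97 in shDnmt3L2 and 6.64 and 6.71 in shDnmt3L3. It was lower with shDnmt3L1 (-0.26 (SE 0.08, adjusted p = 0.026)) and shDnmt3L2 (-0.47 (SE 0.08, adjusted p = 0.0024)) and higher with shDnmt3L3 (0.28 (SE 0.08, adjusted p = 0.0192)). The shGFP contrasts of Slc1a4 and Slc44a4 are small, and leaving out single arrays ended the call with shDnmt3L1 and with shDnmt3L3 for both.

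**Figure D5:**
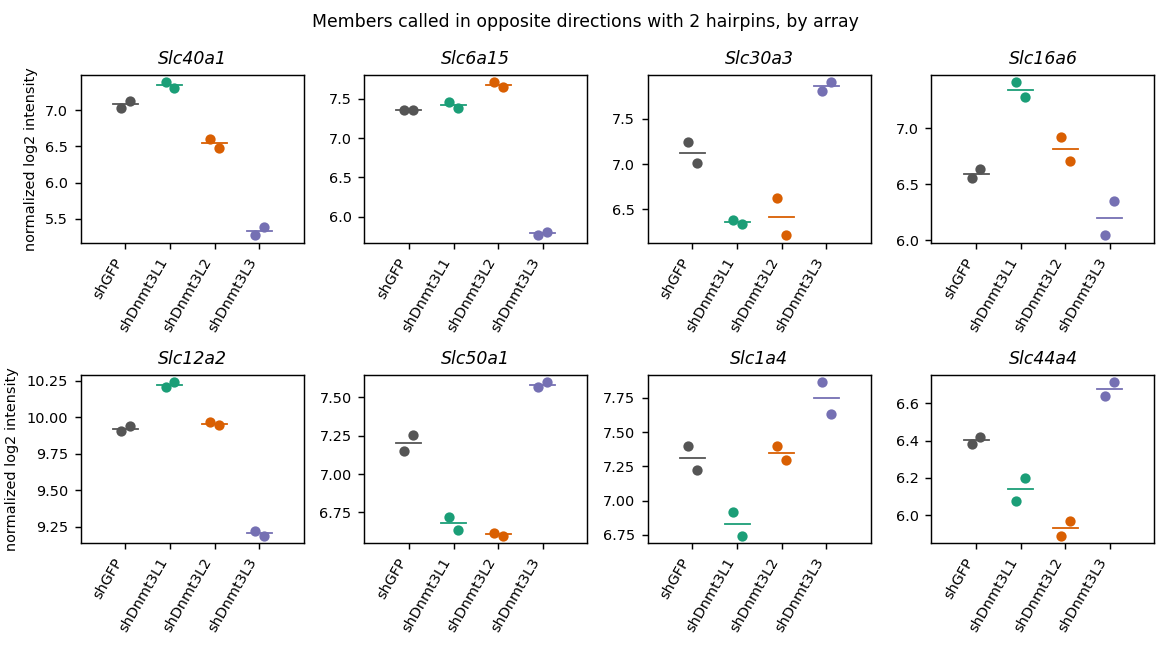
Normalized log2 intensity on each array (points) with group means (bars) for the 8 Slc members that limma called higher with 1 hairpin and lower with another; each panel has its own vertical axis. In every panel the shDnmt3L3 arrays lie on the other side of shGFP from the arrays of shDnmt3L1, of shDnmt3L2 or of both.

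Membrane carriers and partners that bear other symbols were measured alongside. Of 34 such genes 17 passed detection, and 8 were higher and 2 lower over the 3 hairpins (median 0.15). Of all genes 27.5% were higher and 24.7% lower. Slco3a1 and Ucp1, among the higher, were not detected with shGFP and passed only through hairpin arrays, so the filter fixed their direction. The sodium pump beta subunits, which set up the gradient that many solute carriers use, were higher: Atp1b1 by 0.84, Atp1b2 by 0.64 and Atp1b3 by 0.29 on the log2 scale. The organic anion carrier Slco4a1 was higher by 0.90 (SE 0.07, adjusted p = 2.44e-05). Spns1, a lysosomal lipid carrier, and Flvcr1, named for heme export, were lower, at -0.67 (SE 0.08, adjusted p = 0.000271) and -0.47 (SE 0.06, adjusted p = 0.000463). The partner chain of Slc7a7, Slc3a2, was lower with shDnmt3L1 (-0.35 (SE 0.08, adjusted p = 0.00751)) and was not called with shDnmt3L2 (0.06 (SE 0.08, adjusted p = 0.591)), with shDnmt3L3 (-0.12 (SE 0.08, adjusted p = 0.262)) or over the 3 hairpins (-0.14 (SE 0.07, adjusted p = 0.119)), and it differed among the hairpins (F test, adjusted p = 0.00991).

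Among the 4 members that encode no carrier, the scaffold gene Slc9a3r1 (NHERF1) was lower with shDnmt3L3 (-0.49 (SE 0.08, adjusted p = 0.00139)), its relative Slc9a3r2 was higher over the 3 hairpins (0.34 (SE 0.08, adjusted p = 0.00528)), and Slc4a1ap was lower (-0.44 (SE 0.07, adjusted p = 0.000713)). The iodide carrier gene Slc5a5 was lower with shDnmt3L3 (-0.49 (SE 0.08, adjusted p = 0.00135)). Beside a used probe that was called over the 3 hairpins, 42 of 47 further detected probes (89.4%) moved in its direction. In 27 cases both were called, and 2 had opposite signs, those of Slc11a1 and Slc6a6.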

How the data were processed

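The series measured total RNA of 8 E14 cell samples on Illumina arrays. The authors' deposited table gives a non-normalized Cy3 intensity per probe and array, made with GenomeStudio 2011.1 per the submitters' processing notes, with no background subtraction seen in the values. Per the file headers, each intensity is followed by a p-value column, read as its detection p-value. A deposited table of processed intensity entered 1 alternative. On the non-normalized values, neqc (limma 3.58.1, R 4.3.3) corrected the background, quantile-normalized and took log2 after an offset of 16. Probes that the platform annotation ties to 1 gene entered if 2 or more arrays had detection p-values below 0.05, and the brightest probe stood for a gene. Symbols were updated through the RefSeq table of GRCm38.p6, and no member's symbol changed.

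One limma model held all 8 arrays as 4 group means (4 residual and 4.64 prior degrees of freedom). Contrasts were each hairpin, and the mean of the 3 hairpins, minus shGFP, shDnmt3L3 minus the mean of shDnmt3L1 and shDnmt3L2, and an F test among hairpins, all two-sided with Benjamini-Hochberg adjustment over 10930 genes. The contrasts against shGFP share its 2 arrays. For a gene with no detected array in a group, "at least N-fold" compares the brighter group's mean with a floor in the dim group (on each array the lowest detected value, or the gene's own if higher). The limma steps were tested on simulated data. The number of arrays limits precision, and chip positions and hairpin sequences were not used here.

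The members, classes and gene lists were chosen with earlier results of these data known. Named members were, by rule, the 2 highest and 2 lowest called members of each class, the 5 largest called rises and falls of each hairpin, up to 8 members called in opposite directions, the brightest of each class, called members undetected in a whole group, and the lists' genes; other members named were chosen after their values were seen. RefSeq promoter windows matched 151 of 197 members (76.6%), so no comparison of CG content over the members was made. Alternatives covered scaling, background correction, offset, detection filter, probe choice, the authors' values, the replicate block, the hairpin as random block, 2-group fits, trend and robust moderation, and leaving out each array or hairpin.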

Additional observations from a re-analysis of the deposited data

Results flagged for a closer look

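Among the 197 Slc members, 82 (41.6%, against 44.8% of all genes) differed between the 3 hairpins in the F test of limma, that is, the same contrast against shGFP gave unequal sizes. For 8 of them 1 hairpin was called higher and another lower than shGFP. The same count over all genes is not given, so these 8 have no background beside them. The range of the 3 log2 differences from shGFP was 2.012 for Slc40a1, 1.898 for Slc6a15, 1.498 for Slc30a3, 1.146 for Slc16a6, 1.016 for Slc12a2, 0.9726 for Slc50a1, 0.9142 for Slc1a4 and 0.7452 for Slc44a4. The cause of these differences between hairpins was not tested.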

How the results depend on the processing

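The 10 counts over all members were recomputed under 25 alternative settings, not all of which apply to each count. This gave 194 values, and 190 lay within 1.5 times the reported count. Under median scaling 29 members were lower with shDnmt3L1 and 30 over the 3 hairpins, where the reported counts are 47 and 57. With the hairpin as a random block (consensus correlation 0.691), 4 members were higher and 1 lower over the 3 hairpins, and of all genes 224 were higher and 99 lower instead of 3004 and 2703. This setting treats the arrays of a group as correlated, which widens the standard errors, but its degrees of freedom still count arrays. Without 1 array, the members higher ranged from 30 to 42 with shDnmt3L1, 21 to 31 with shDnmt3L2, 46 to 59 with shDnmt3L3 and 42 to 49 over the 3 hairpins; the members lower from 35 to 48, 27 to 38, 42 to 50 and 44 to 54; those that differ among the hairpins from 63 to 84; and those that differ between shDnmt3L3 and the mean of shDnmt3L1 and shDnmt3L2 from 59 to 82. The replicate block gave 48 members higher and 58 lower over the 3 hairpins; groups share only the replicate number, and deviations of same-numbered arrays correlated at -0.01 to 0.037. Counts within the classes over the 3 hairpins were less stable: of 616 values, 532 lay within 1.5 times the reported count and 84 moved further. Without 1 array, the lower calls ranged from 2 to 5 among ion carriers, where 6 were reported, 2 to 5 among vitamin, 2 to 4 among iron, 5 to 8 among amino acid and 6 to 10 among mitochondrial carriers, and the higher calls from 4 to 8 among organic ion carriers.

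Of 4500 values for single members, 4155 kept direction and call, 343 lost the call, and 2 reversed, both over the 3 hairpins: Slc11a1 gave 0.1175 when its detected probes were averaged, and Slc6a15 gave 0.1941 without the shDnmt3L3 arrays. Of 64 named members called over the 3 hairpins, 40 kept the call under every alternative but the random block. Low signal limits members near background, whose differences depend on the offset.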
